A study of Mus musculus with 6 samples.

Results

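Chromatin regulators of the Polycomb, BAF and histone-modifier classes were measured in retinal progenitor cells (RPCs) with and without Pax6, a transcription factor of the developing eye. The 46 genes were taken from a list of named regulators, of which all 46 were measured, among 18193 genes with an annotated symbol. Each gene was represented by its probe set, a group of short array probes for 1 transcript, with the highest mean over all arrays. There were 14 Polycomb genes, of which 5 belong to Polycomb repressive complex 2 (PRC2) and 9 to complex 1 (PRC1), 12 BAF genes, 6 deacetylase genes, 9 genes of histone demethylation and DNA methylation, and 5 genes of acetyltransferases and CHD remodellers. RNA came from GFP-positive cells of the distal optic cup of ICR mouse embryos at embryonic day 12, in 3 control pools (Pax6+/+;α-Cre) and 3 mutant pools (Pax6 loxP/loxP;α-Cre) of 1800000 cells each. Control cells carried the α-Cre transgene too, in which a Pax6 promoter and a peripheral retina enhancer drive Cre and GFP, and which is not active in all RPCs. Each pool was hybridised to 1 array. The study calls the pools biological replicates, and p-values measure the spread between them.

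Polycomb complexes silence developmental genes: PRC2 methylates histone tails, and PRC1 binds this mark and ubiquitinates histones. BAF complexes use ATP to move nucleosomes, and neural progenitors exchange some of their subunits when they become neurons. Deacetylases and acetyltransferases remove and add acetyl groups on histones, DNA methyltransferases and TET enzymes add and oxidise methyl groups on DNA, and in the retina such regulators are known for roles in progenitor proliferation and in the timing of differentiation.

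Most of these genes differed little between mutant and control RPCs. Of those that passed the test with all 6 arrays, 7 fell and 3 rose. This balance was lost when some arrays were left out, in fits for which no share of all genes was computed. By limma, 10 of 46 had a Benjamini-Hochberg adjusted p under 0.10 over all probe sets: Jarid2, Rnf2 and Smarca2 rose, and Ezh2, Cbx2, Smarcd1, Smarcd3, Dnmt3a, Dnmt3b and Chd7 fell. The 3 that rose were 6.52% of the members, against 7.15% of all genes that rose by the same rule, and the 7 that fell were 15.2%, against 5.22% of all genes. Since 43 of the 46 members lay above the array median, genes above it are the closer background, of which 10.5% rose and 7.62% fell. A gene was called where, in addition, the fold change was at least 1.5. Smarca2 was called higher, 1 of 46, against 2.28% of all genes called higher, and 0 members were called lower by limma, against 0.918% of all genes called lower. An unadjusted p under 0.05 was found for 15 members, or 32.6%, against 24.4% of all genes, while the test without moderation of the variance called 0 members in either direction. The 3 mutant arrays lay on one side of the 3 control arrays for 17 members, or 37%, close to the 33.4% of all genes. Changes were small: 32 members had an absolute log2 fold change under 0.20, and the median of all 46 was -0.05, against -0.01 over all genes. In the same arrays 15 of 19 S phase genes fell, and their part in these values was not tested. In sorted pools, fewer cells of a type and less RNA per cell cannot be told apart.

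**Figure D1:**
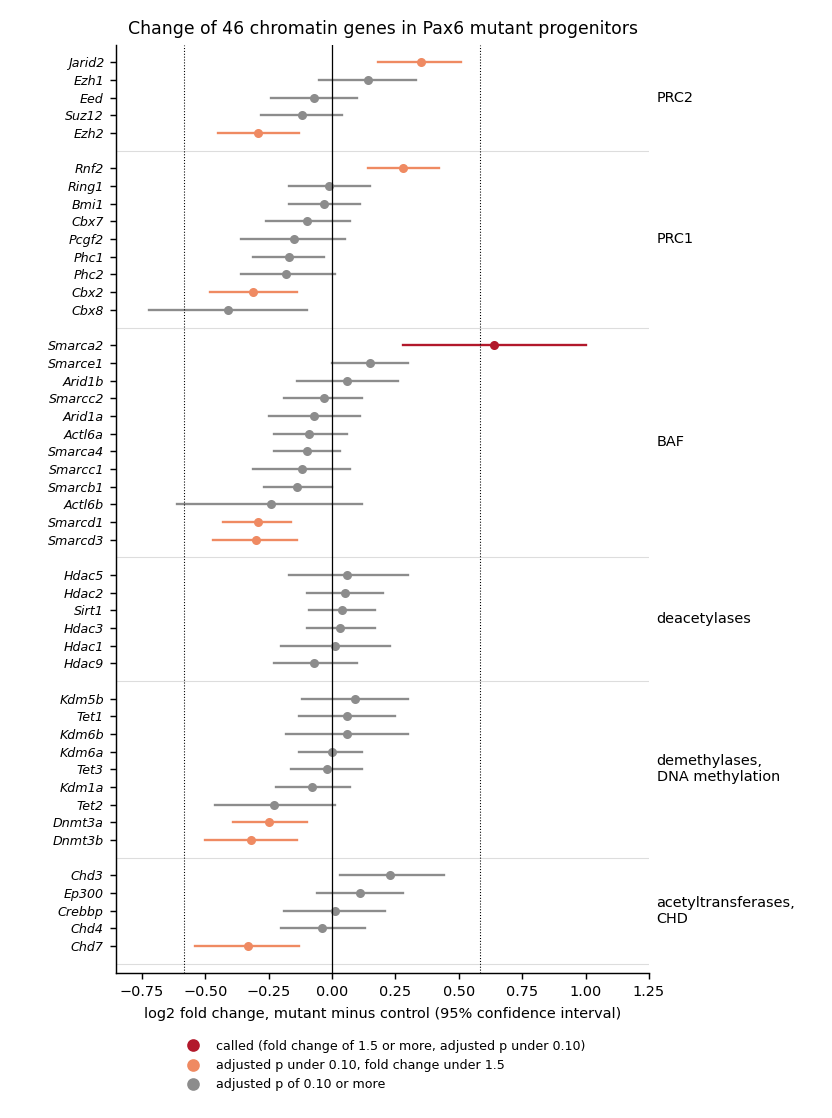
Log2 fold change of each of the 46 members, mutant minus control, with its 95% confidence interval from limma, ordered within the 6 groups. Dotted lines mark a fold change of 1.5, which Smarca2 (0.64) passed, and the 6 deacetylases lie between -0.07 and 0.06.

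Which members passed depended on which arrays were kept. When 1 array was left out at a time, 0 to 3 members rose and 1 to 4 fell at an adjusted p under 0.10. Without control replicate 1, 1 rose and 4 fell, of which Cbx8 was not among the 7. Without control replicate 2, 3 rose and 1 fell, so that the balance turned, and without control replicate 3, 3 rose and 3 fell. Without mutant replicate 1, 1 rose and 1 fell. Without mutant replicate 2 or mutant replicate 3, 0 rose and 1 fell, which in the latter case was Actl6b, not among the 7. With all 6 arrays and the replicate number of the pools as a block, 2 rose and 2 fell. The fits without 1 array had 5 arrays in place of 6, which lowers the power for every probe set. The share of all genes that passed was not computed for the block fit or for the fits without 1 array. The lower counts therefore cannot be read as particular to the members.

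Promoter sequence of 3 members is shown here: Ezh2 and Smarcd1, the 2 that fell and held a match to the E2F letters below, and the called gene Smarca2. E2F factors are known to act at short promoter motifs of S phase genes. Their part in the values of the members was not tested. Promoter windows of RefSeq (GRCm38.p6, from 250 bases before to 50 after the start) were matched for 39 of the 46 members. The letters searched, on both strands, were TTTCCCGC, TTTGGCGC, TTTCGCGC and TTTGCCGC for E2F, CCAAT for the CCAAT box and TTCACGC, a core of the Pax6 paired-domain motif. Capitals mark E2F and CCAAT matches in the lines that follow, which run 5′ to 3′ along the gene.
Ezh2, chr6:47595016-47595130, minus strand, from base -100 to base 15 of the start: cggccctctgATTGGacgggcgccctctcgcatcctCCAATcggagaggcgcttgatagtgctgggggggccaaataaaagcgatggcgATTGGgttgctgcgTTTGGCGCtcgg
Smarcd1, chr15:99702137-99702206, plus strand, from base -150 to base -81: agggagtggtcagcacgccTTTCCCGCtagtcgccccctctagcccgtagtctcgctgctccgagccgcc
Smarca2, chr19:26605060-26605159, plus strand, from base -100 to base -1: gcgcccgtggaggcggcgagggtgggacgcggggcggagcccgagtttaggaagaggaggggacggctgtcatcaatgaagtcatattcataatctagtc

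The E2F letters were found in 4 of 39 members (10.3%), Ezh2, Suz12, Smarcd1 and Arid1a, against 2.6% of 27025 genes with a window. Of the 7 genes that fell 5 had a window, of which Ezh2 and Smarcd1 held the letters and Smarcd3, Dnmt3a and Dnmt3b did not, while Suz12 and Arid1a had log2 fold changes of -0.12 and -0.07 and did not pass. The E2F match of Ezh2 lay after the start, at bases 4 to 11, and its window also held 3 CCAAT boxes. CCAAT was in 12 of 39 members (30.8%) and in 41.1% of all genes, and the Pax6 core letters were in 0 of 39 and in 1.48% of all genes. Members had a median of 29 CpG pairs in their first window, against 7 over all genes, so that their promoters differ from the average in base composition. A match describes letters and shows no binding.

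Among the PRC2 genes the catalytic subunit and an accessory subunit went opposite ways. Ezh2 encodes the histone methyltransferase of PRC2 in dividing cells. Its log2 intensity was 9.48, 9.54 and 9.66 in control and 9.28, 9.23 and 9.30 in mutant RPCs, so that every mutant array was below every control array. The log2 fold change, the mutant mean minus the control mean and also called the log2 difference, was -0.29 (standard error, SE, of 0.07, limma adjusted p = 0.0596), or 1.22-fold lower. Ezh1, the alternative methyltransferase that prevails in non-dividing cells, had log2 intensities of 4.85, 4.68 and 4.60 in control and 4.90, 4.80 and 4.85 in mutant RPCs. The groups overlapped, and its log2 fold change of 0.14 (95% confidence interval -0.05 to 0.33) did not pass. Jarid2, a DNA-binding partner that helps to recruit PRC2, was at 7.92, 7.97 and 7.93 in control and 8.19, 8.38 and 8.30 in mutant RPCs. All mutant arrays were above all control arrays, with a log2 difference of 0.35 (SE 0.07, limma adjusted p = 0.0381). The core subunit genes Eed and Suz12, which hold the complex together, had log2 fold changes of -0.07 and -0.12, and their groups overlapped. The median of the 5 genes was -0.07. Ezh2 did not pass with the replicate number of the pools as a block, or without control replicate 2, control replicate 3 or any 1 of the mutant arrays (-0.33 to -0.24 over the fits without 1 array), and Jarid2 did not pass without mutant replicate 2 or mutant replicate 3 (0.30 to 0.40 over the fits without 1 array).

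In PRC1, 8 of 9 genes had a negative log2 fold change (median -0.15, against -0.01 over all genes), 1 of them past the test. The exception was a catalytic subunit. Of the 8, Ring1 (-0.01) and Bmi1 (-0.03) were near 0, and the share of all genes with a negative value was not computed. Rnf2 encodes RING1B, the main ubiquitin ligase of the complex. Its log2 intensity was 8.85, 8.93 and 8.95 in control and 9.20, 9.20 and 9.16 in mutant RPCs. The groups did not overlap, and the log2 difference was 0.28 (SE 0.06, limma adjusted p = 0.0438). Its homologue Ring1 had a log2 fold change of -0.01 (95% confidence interval -0.17 to 0.15). Among the CBX genes, whose chromodomain proteins bring PRC1 to methylated histones, Cbx2 fell. Its log2 intensity was 8.26, 8.45 and 8.27 in control and 8.04, 7.99 and 8.03 in mutant RPCs, without overlap, a log2 difference of -0.31 (SE 0.07, limma adjusted p = 0.0554). Cbx8 was at 5.35, 5.78 and 5.79 in control and 5.20, 5.14 and 5.36 in mutant RPCs. Its log2 fold change of -0.41 was the largest of the Polycomb genes, but control replicate 1 lay within the range of the mutant arrays and the adjusted p was 0.137 from limma. The other Cbx8 probe set, below the array median, went the other way (0.21, limma adjusted p = 0.386). The median of its probe sets gave -0.10. Cbx7 was dimmer than the array median and had a log2 fold change of -0.10. The scaffold genes Phc1 and Phc2 had log2 fold changes of -0.17 and -0.18, and Phc1 was lower on every mutant array (limma adjusted p = 0.167). Bmi1 and Pcgf2, alternative partners of the ligase, had values of -0.03 and -0.15. The other probe set gave 0.11 for Bmi1 and -0.17 for Pcgf2, and neither passed. Rnf2 and Cbx2 did not pass with the replicate number as a block or by the median of their probe sets. Rnf2 did not pass without control replicate 1 or any 1 of the mutant replicates (0.25 to 0.30 over the fits without 1 array), nor Cbx2 without control replicate 2 or any 1 of the mutant replicates (-0.35 to -0.25).

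**Figure D2:**
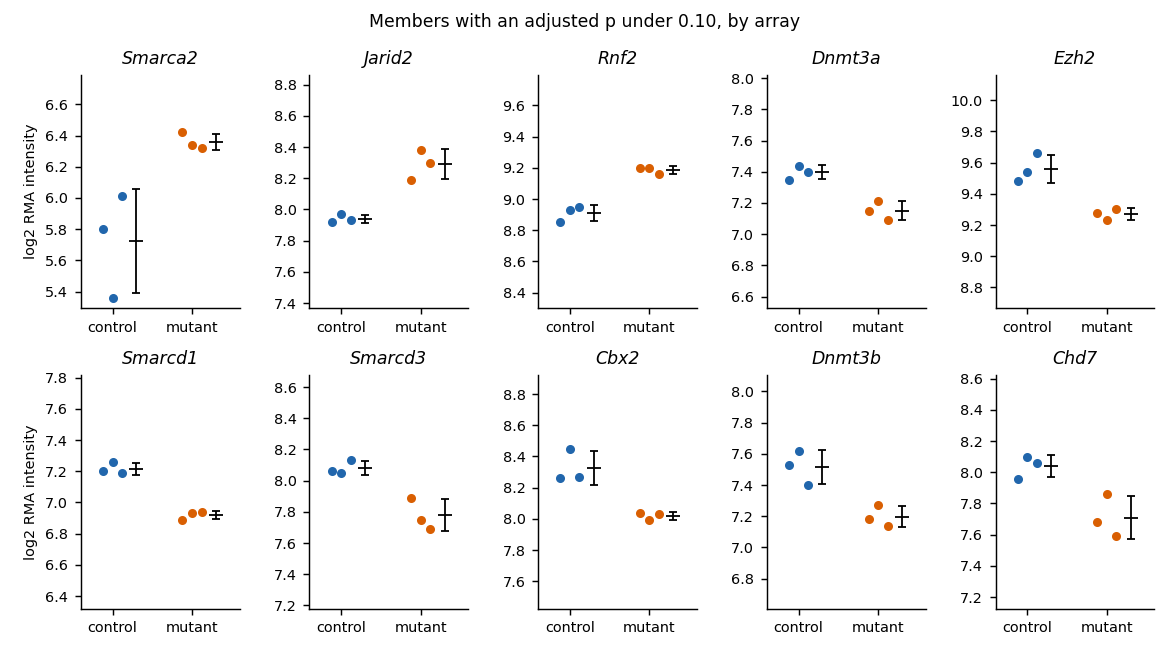
Log2 RMA intensity on each array of the 10 members with an adjusted p under 0.10, control in blue and mutant in orange, with the mean and SD of 3 arrays as black bars; each panel spans the same 1.5 log2 units. The groups do not overlap in any panel, and the control arrays of Smarca2 are the most spread (SD of 0.33).

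The BAF genes held the single called member and the widest range, from -0.30 to 0.64, with a median of -0.09. Smarca2 encodes BRM, the ATPase that can take the place of BRG1. Its log2 intensity was 5.80, 5.36 and 6.01 in control and 6.42, 6.34 and 6.32 in mutant RPCs. Every mutant array was higher, with control replicate 2 the lowest, and the level was 1.56-fold higher in mutant RPCs (log2 fold change of 0.64, standard error 0.15, limma adjusted p = 0.0632). The other Smarca2 probe set was at 4.24, 3.01 and 4.17 in control and 4.55, 4.95 and 4.43 in mutant RPCs. Its log2 difference of 0.84 did not pass (limma adjusted p = 0.204), and control replicate 2 was again the lowest. The same control array was the lowest for each of the 8 measured endothelial genes, such as Tek (5.74, 4.77 and 5.71). These genes were higher on every mutant array. It was also the lowest for most pigment epithelium genes, such as Tyr (9.59, 9.13 and 9.47 in control), but not for Slc45a2 or Rpe65. Of these 10 genes, 9 were higher on every mutant array. For most genes of the lens and mesenchyme lists it was not the lowest. The part of other tissues in the Smarca2 values was not tested. The call of Smarca2 was lost without control replicate 1 (0.68), control replicate 2 (0.46) or any of mutant replicates 1 (0.61), 2 (0.65) and 3 (0.66), and without moderation of the variance (0.64, adjusted p = 0.225).

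Smarca4, which encodes BRG1, the ATPase of progenitor BAF complexes, was at 9.70, 9.74 and 9.72 in control and 9.60, 9.66 and 9.61 in mutant RPCs. Its arrays did not overlap between groups, but the log2 fold change of -0.10 (95% confidence interval -0.23 to 0.03) did not pass. Both measured BAF60 subunits of the list fell. Smarcd1 (BAF60A) was at 7.20, 7.26 and 7.19 in control and 6.89, 6.93 and 6.94 in mutant RPCs, without overlap, a difference of -0.29 on the log2 scale (SE 0.06, limma adjusted p = 0.0352). Smarcd3 (BAF60C) was at 8.06, 8.05 and 8.13 in control and 7.89, 7.75 and 7.69 in mutant RPCs, also without overlap, a log2 difference of -0.30 (SE 0.07, limma adjusted p = 0.058). The falls of Smarcd1 and Smarcd3 did not pass in every fit without 1 array: Smarcd1 passed without control replicate 1, control replicate 2 or control replicate 3 (-0.31 to -0.27 over the 6 fits), and Smarcd3 passed without mutant replicate 1 alone (-0.36 to -0.26), and not with the replicate block. By the median of its probe sets Smarcd1 did not pass (-0.18).

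The actin-like subunit is another that changes as progenitors become neurons, from Actl6a (BAF53A) to Actl6b (BAF53B). Actl6a was at 7.98, 8.11 and 8.10 in control and 8.01, 7.98 and 7.94 in mutant RPCs, a log2 difference of -0.09 with overlapping groups (95% confidence interval -0.23 to 0.06). Its other probe sets gave -0.17 and -0.31, with every mutant array below every control array, and did not pass (limma adjusted p = 0.326 and 0.34). Actl6b was at 2.39, 2.36 and 2.56 in control and 1.97, 2.06 and 2.56 in mutant RPCs, below the array median on all 6 arrays, so that its log2 difference of -0.24 (limma adjusted p = 0.428) is uncertain in size. The core and scaffold genes Smarcb1, Smarcc1, Smarcc2 and Smarce1 had log2 fold changes of -0.14, -0.12, -0.03 and 0.15. The ARID genes Arid1a and Arid1b, which encode alternative DNA-binding subunits, had values of -0.07 and 0.06, and none of these 6 genes passed.

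None of the 6 deacetylase genes passed the adjusted p of 0.10 or an unadjusted p of 0.05 from limma, and no 95% confidence interval of the group reached beyond -0.23 or 0.30 on the log2 scale. Hdac1 and Hdac2, the class I enzymes of the large corepressor complexes, had log2 fold changes of 0.01 (95% confidence interval -0.20 to 0.23) and 0.05. Hdac2 was at 9.64, 9.70 and 9.76 in control and 9.82, 9.69 and 9.74 in mutant RPCs. Hdac3, the enzyme of nuclear receptor corepressors, had a value of 0.03, and the NAD-dependent Sirt1 one of 0.04. Of the class IIa genes, Hdac5 was at 6.35, 6.03 and 6.22 in control and 6.15, 6.36 and 6.29 in mutant RPCs, a log2 difference of 0.06. Hdac9 was at 3.44, 3.46 and 3.62 in control and 3.48, 3.40 and 3.44 in mutant RPCs, all dimmer than the array median, and differed by -0.07. The groups overlapped for all 6 genes.

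Among the genes of DNA methylation the de novo methyltransferases fell. Dnmt3b was at 7.53, 7.62 and 7.40 in control and 7.18, 7.27 and 7.14 in mutant RPCs, without overlap, a log2 difference of -0.32 (SE 0.08, limma adjusted p = 0.064). Its other probe set gave -0.45 (limma adjusted p = 0.041). Dnmt3a was at 7.35, 7.44 and 7.40 in control and 7.15, 7.21 and 7.09 in mutant RPCs, a log2 difference of -0.25 (SE 0.06, limma adjusted p = 0.0728). The 4 other Dnmt3a probe sets did not pass and went both ways, from -0.11 to 0.23, so that the median of its probe sets gave 0.01, and Dnmt3a did not pass without any 1 of the 6 arrays (-0.28 to -0.22) or with the replicate block. Dnmt3b passed in that group of fits without control replicate 3 alone (-0.38 to -0.27).

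The TET dioxygenases start the removal of methyl groups from DNA. Tet2 was at 6.44, 6.66 and 6.29 in control and 6.20, 6.29 and 6.22 in mutant RPCs, touching at 6.29 after rounding, and the log2 difference of -0.23 did not pass (limma adjusted p = 0.248). Tet1 and Tet3 had values of 0.06 and -0.02. The histone demethylase genes did not pass either. Kdm1a (LSD1) had a log2 fold change of -0.08, Kdm5b 0.09, and Kdm6a and Kdm6b, whose enzymes remove the PRC2 mark, 0.00 and 0.06. The other Kdm1a probe set gave -0.17, with every mutant array below every control array, and did not pass (limma adjusted p = 0.14). For Kdm6a the 6 arrays lay between 8.30 and 8.31.

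Chd7, a nucleosome remodeller gene of neural and eye development, was at 7.96, 8.10 and 8.06 in control and 7.68, 7.86 and 7.59 in mutant RPCs. The groups did not overlap, and the log2 difference was -0.33 (SE 0.09, limma adjusted p = 0.0775). The other Chd7 probe set was at 8.08, 7.90 and 8.32 in control and 7.41, 7.47 and 7.65 in mutant RPCs and was called lower (-0.59, limma adjusted p = 0.0381). Chd3 was at 7.64, 7.54 and 7.69 in control and 7.72, 8.0 and 7.85 in mutant RPCs, higher on every mutant array, but the log2 difference of 0.23 did not pass (limma adjusted p = 0.192). Chd4, its alternative in the NuRD deacetylase complex, had a value of -0.04. The acetyltransferase genes Ep300 and Crebbp had log2 fold changes of 0.11 and 0.01. Ep300 was at 7.96, 8.02 and 8.02 in control and 8.05, 8.23 and 8.06 in mutant RPCs, without overlap, and did not pass (limma adjusted p = 0.425). By its first probe set Chd7 passed, among the fits without 1 array, without mutant replicate 2 alone (-0.41 to -0.27), and not with the replicate block.

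The probe sets of a gene supported each other for some members and not for others. The 46 genes had 108 probe sets, 32 genes had more than 1, and 14 probe sets passed, of which 2 were called. The share of all probe sets that passed or were called was not computed, so that these counts have no background. All 3 Jarid2 probe sets rose (0.33 to 0.36), and both probe sets of Dnmt3b and of Chd7 fell. The second Rnf2 probe set differed by 0.20 on the log2 scale and did not pass (limma adjusted p = 0.14), and the second one of Cbx2 had a value of -0.01. Ezh2 and Smarcd3 had 1 probe set each.

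**Figure D3:**
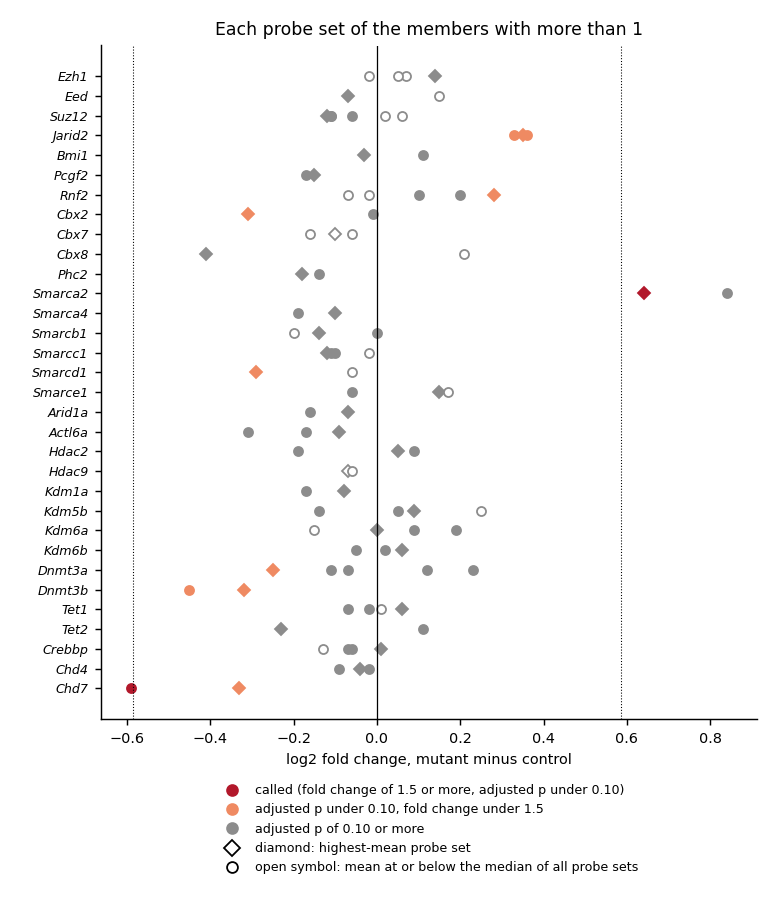
Log2 fold change, mutant minus control, of each probe set of the 32 members with more than 1; diamonds are the probe sets with the highest mean, open symbols lie at or below the median of all probe sets and dotted lines mark a fold change of 1.5. Jarid2, Dnmt3b and Chd7 are to one side with all their probe sets, and the 5 Dnmt3a probe sets lie on both sides of 0.

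Further chromatin genes from the same complexes and enzyme classes were measured for 126 of 134 listed, and 5 of them rose and 9 fell at an adjusted p under 0.10 from limma, with a median log2 fold change of -0.06. These were 3.97% and 7.14% of the 126, against 10.5% and 7.62% of genes above the array median, so that the falls were near the background share. Bcl11b and Prdm16 were called higher, 2 of 126, against 2.28% of all genes called higher. Rcor2 was called lower, 1 of 126, against 0.918% of all genes called lower. Calls were thus no more frequent than among all genes. Prdm16, a zinc finger methyltransferase gene, had log2 intensities of 6.01, 6.20 and 6.29 in control and 7.37, 7.37 and 7.27 in mutant RPCs, a log2 difference of 1.17 (SE 0.09, limma adjusted p = 0.00259). Of its other probe sets, 1 rose (0.42), another had the same log2 fold change of 0.42 and did not pass, and the dimmest, below the array median, had a value of -0.40. Bcl11b, a zinc finger subunit of neural BAF complexes, was at 5.77, 5.68 and 5.71 in control and 6.54, 6.44 and 6.28 in mutant RPCs, a log2 difference of 0.70 (limma adjusted p = 0.00829), and those of its 3 other probe sets were 0.24 to 0.36. By the median of their probe sets neither was called.

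Rcor2, a corepressor that joins LSD1 to deacetylases, was at 7.42, 7.53 and 7.53 in control and 6.78, 6.98 and 6.89 in mutant RPCs, a log2 difference of -0.61 (SE 0.07, limma adjusted p = 0.00921), and was not called without mutant replicate 1. Nsd2, a histone methyltransferase gene, was called lower in addition without control replicate 3 or mutant replicate 3. Among the genes that passed without a call, Nsd2 (-0.58) had the lowest p. It was followed by the acetyltransferase gene Kat2b (-0.32), the BAF60B gene Smarcd2 (0.32), the sirtuin gene Sirt2 (0.27), the helicase gene Hells (-0.33) and Chd9 (-0.23). Smarcd2 thus rose where Smarcd1 and Smarcd3 fell. Of 21 further Polycomb genes, none passed the adjusted p from limma, 4 had an unadjusted p under 0.05, and their log2 fold changes lay between -0.24 and 0.14.

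**Figure D4:**
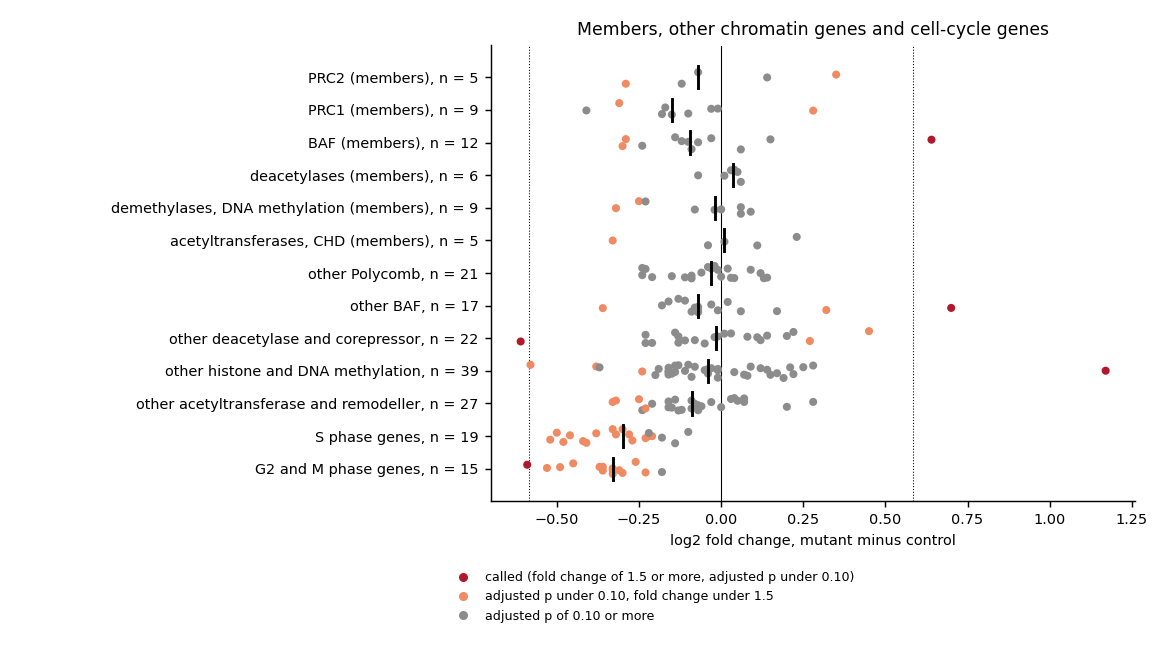
Log2 fold change, mutant minus control, of the members by group, of the other chromatin genes by class and of S phase and of G2 and M phase genes, 1 point per gene with a black line at the median; dotted lines mark a fold change of 1.5. The cell-cycle lists lie to the left of 0 (medians of -0.30 and -0.33), and the medians of the chromatin lists lie between -0.15 and 0.03.

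Other genes moved in the same arrays. Of 19 S phase genes, 15 fell and none rose, and of 15 G2 and M phase genes, 14 fell and none rose. The summed linear intensity of the S phase genes was 12828 to 13318 in control and 10442 to 10771 in mutant RPCs. Of 11 newborn neuron genes, 6 fell, with a summed intensity of 487 to 789 in control and 284 to 347 in mutant RPCs. Markers of other tissues of the eye rose: 9 of 10 pigment epithelium genes (6004 to 7350 in control, 9510 to 9623 in mutant), 6 of 11 lens and surface ectoderm genes (1580 to 2640 and 3250 to 3678), 5 of 10 mesenchyme genes (538 to 579 and 844 to 1166) and 6 of 8 endothelial genes (527 to 752 and 972 to 1035). Of 6 photoreceptor precursor genes, 2 rose (203 to 255 and 331 to 353), and of 8 blood and macrophage genes none passed the adjusted p of limma or an unadjusted p of 0.05. At or below the array median were 1 pigment epithelium, 1 lens, 2 mesenchyme and 0 endothelial genes. All 9 measured retinal progenitor genes were above the array median, and 4 of them fell. Pax6 was called lower by 1 of its 5 probe sets (-1.60), and its brightest had a log2 fold change of -0.11. Their place relative to the deleted exons was not determined. The part of the cell-cycle genes and of the other tissues in the values of the chromatin genes was not tested.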

How the data were processed

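RNA of 3 control and 3 mutant pools was hybridised to 1 Affymetrix mouse expression array each. The authors obtained intensities on a linear scale with RMA, which corrects background, normalises between arrays and summarises probes. They ran it through RACE, a front end to Bioconductor, by the methods, while the submitters' processing notes also list Expression Console of Affymetrix. No source used here gives versions. Normalisation between arrays hides a change common to all genes, and the summary narrows small differences of dim probe sets.

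Log2 of the deposited intensities was taken, 64 control probe sets were left out, and the other 45037 were fitted with limma 3.58.1 in R 4.3.3 (lmFit and eBayes, mutant minus control, no covariate). A probe set passed at a Benjamini-Hochberg adjusted p under 0.10 over all probe sets, and was called where the fold change also reached 1.5 with p under 0.05, the thresholds of the methods, which name SAM as a further check and no test for the p-value itself. SAM was not run here. Symbols came from the platform annotation, with 34945 probe sets of 1 gene, 932 of several, which were left out, and 9160 without a symbol. The median of all intensities was 3.70 on the log2 scale, and is called the array median. Levels of different probe sets were not compared. There is no depth for arrays; their number, 3 per group, limits the precision. The fit was tested on simulated data.

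The members and all gene lists were chosen with earlier results of these data known. By rule, values on each array are given for members that passed, for the 3 of each group with the largest absolute log2 fold change and for 3 pairs of alternative subunits; other chromatin genes are named where called or among the 6 of lowest p that passed uncalled. Same-numbered pools did not deviate together (correlations of -0.011, -0.001 and -0.008). The methods use no block, and the replicate number was therefore used as one in an alternative only. Other alternatives were the variance model, array weights, scaling, a filter on dim probe sets, the choice of probe set and leaving out each array.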

Additional observations from a re-analysis of the deposited data

How the results depend on the processing

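The counts and values were recomputed under 15 settings, 6 of which left out 1 array. Smarca2 was the member called higher in 9 of these settings. With array weights, array medians subtracted, quantile normalisation or no probe sets of the _s_at and _x_at types, the same 10 members passed. Without moderation of the variance 0 members were called higher, 1 rose (Rnf2) and 2 fell (Smarcb1, not among the 7, and Smarcd1) at an adjusted p under 0.10, and with an intensity trend in the variance 5 rose and 10 fell. By the median of a gene's probe sets 4 fell, 0 other chromatin genes were called higher and 3 were called lower, and the medians moved to 0.04 for PRC2 and -0.10 for PRC1. With the replicate block 2 members fell, Smarcd1 and Dnmt3b, against 7 without it, and 2 rose; the pools share a number only, and the block changed no call. Without 1 array at a time, 0 to 1 members were called higher, 0 to 3 rose, 1 to 4 fell and 0 to 2 other chromatin genes were called lower. No share of all genes was computed for any of the 15 settings, so that these counts of members cannot be set against a background. The single fall without mutant replicate 3 was that of Actl6b, a gene below the array median (limma adjusted p = 0.0846). Over the fits without 1 array, the medians lay between -0.08 and -0.01 for PRC2 and -0.15 and -0.10 for PRC1. They lay between -0.12 and -0.05 for BAF and -0.05 and 0.00 for demethylases and DNA methylation.

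The sign turned in at least 1 setting for 16 members, of which Dnmt3a (0.01 by the median of its probe sets) was the one that had passed. The same median turned Eed (0.04), Bmi1 (0.04), Smarce1 (-0.06), Kdm5b (-0.05), Kdm6a (0.14), Kdm6b (-0.05), Tet1 (-0.03) and Crebbp (-0.06), subtracting array medians turned Kdm6a (0.01), and array weights turned Crebbp (0.00). Without 1 array, the log2 fold changes that turned ranged from -0.06 to 0.03 for Ring1, -0.08 to 0.00 for Smarcc2, -0.02 to 0.12 for Arid1b, -0.05 to 0.10 for Hdac1, -0.02 to 0.14 for Hdac5, 0.00 to 0.00 for Kdm6a, -0.05 to 0.14 for Kdm6b, -0.01 to 0.10 for Tet1, -0.05 to 0.01 for Tet3, -0.06 to 0.07 for Crebbp and -0.09 to 0.01 for Chd4. Leaving out the lowest 40% of probe sets left no value for Actl6b, and leaving out the _s_at and _x_at types none for Hdac3. The cause was not tested. With 3 arrays per group, changes of this size near 0 have no settled direction.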

Other observations

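Genes of heterochromatin protein 1, of high mobility group proteins and of variant histones, a list chosen after the other values were seen, were measured for 11 of 20 named. Cbx1, an HP1 gene, fell (-0.31 on the log2 scale, limma adjusted p = 0.0478), as did Hmgb3, a high mobility group gene of progenitors (-0.25, limma adjusted p = 0.0565). The 9 others did not pass, and among them the HP1 genes Cbx3 and Cbx5 had log2 fold changes of -0.24 and -0.19 and the chromatin architecture gene Hmga2 one of 0.01. The Cbx3 probe set was dim, near the array median (means of 4.05 in control and 3.81 in mutant RPCs). Its groups overlapped, and those of Cbx5 did not.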
